A study of Mus musculus with 9 samples.

Results

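Cells sense oxygen through prolyl hydroxylases that mark the alpha subunits of the hypoxia-inducible factors (HIF) for binding by VHL and degradation, so that HIF accumulates when oxygen is low and activates its target genes. In leukocytes HIF-1 is known for its part in glycolytic metabolism and myeloid cell function, and Hif1a mRNA itself is also regulated by inflammatory signals. Of this system 10 genes were chosen by name rather than by a threshold on their values, though with earlier results of these data known. They are the HIF alpha subunits Hif1a and Epas1, the oxygen-sensing hydroxylases Egln1 and Egln3, the ubiquitin ligase component Vhl, and the HIF targets Bnip3, Bnip3l, Ndrg1, Adm and Vegfa. For 9 of the 10 genes, among 18194 genes in all, the array held a probe set with exactly 1 gene symbol. The 3 probe sets for Bnip3l, a mitophagy receptor, also carry the symbol of a Bnip3l pseudogene, so that no value is given for it.

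Blood of 9 C57BL/6 mice aged 8 to 9 weeks and weighing 25 g on average was measured on 9 Affymetrix arrays, with 3 animals per group and 1 array per animal. Ctrl animals were not manipulated and were bled directly after anesthesia with sevoflurane in oxygen had begun. PT animals received a polytrauma made up of traumatic brain injury, closed femoral fracture and bilateral blunt chest trauma, under anesthesia and buprenorphine, and were sampled 4 h later. In PT + HS animals, controlled bleeding was begun 1 h after the same trauma, the mean arterial pressure was held at 30 mmHg for 60 min, and 4 times the drawn volume was given as fluid within 30 min, with norepinephrine as needed and sampling at the same 4 h. The long oxygen-rich anesthesia, analgesia, catheters and time are thus shared by both injured groups and set them apart from Ctrl, and their part in a difference from Ctrl cannot be told apart from that of the trauma. Between PT + HS and PT, the parts of blood loss, low pressure, fluid and any norepinephrine likewise cannot be told apart. The values are log2 expression values, so that a difference of 1 is a doubling, and a fold is given where it helps. Whole blood was lysed, so that fewer cells of a type and less RNA per cell cannot be told apart. Markers of red cell precursors and platelets were measured beside those of leukocytes, with group means of 14.25 to 14.32 for Alas2, the first enzyme of erythroid heme synthesis, and of 11.52 to 11.76 for Pf4, a platelet chemokine. PT replicate 2 stood apart, with correlations over genes of 0.900 to 0.944 to the other arrays, against at least 0.958 among the other 8 arrays. This array had the lowest mean level of the B-cell, T-cell and NK-cell marker lists and the highest of the red cell precursor list. Values without it are given where they change a call of the genes chosen by name, and for some other genes and lists. Not every value that moved without it is given.

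The 250 bases before the RefSeq transcription start are shown for the 4 genes whose PT + HS values all lay above all Ctrl values, since HIF binds a core motif that reads ACGTG or GCGTG. Bases are from GRCm38.p6, 5' to 3' on the strand of the gene, and capitals mark every match of either motif on either strand, so that a match on the opposite strand reads CACGT or CACGC.
Bnip3, chr7:138909507-138909756, minus strand: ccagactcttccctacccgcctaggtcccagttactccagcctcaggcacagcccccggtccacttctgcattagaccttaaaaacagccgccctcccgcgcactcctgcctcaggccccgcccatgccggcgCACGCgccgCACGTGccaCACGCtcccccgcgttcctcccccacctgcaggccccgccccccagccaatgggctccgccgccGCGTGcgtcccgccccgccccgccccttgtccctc
Hif1a, chr12:73907617-73907866, plus strand: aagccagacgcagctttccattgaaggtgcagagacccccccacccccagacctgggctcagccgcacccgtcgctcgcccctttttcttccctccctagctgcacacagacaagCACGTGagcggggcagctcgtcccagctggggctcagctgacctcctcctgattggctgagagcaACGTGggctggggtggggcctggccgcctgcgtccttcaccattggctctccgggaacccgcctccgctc
Egln1, chr8:124949255-124949504, minus strand: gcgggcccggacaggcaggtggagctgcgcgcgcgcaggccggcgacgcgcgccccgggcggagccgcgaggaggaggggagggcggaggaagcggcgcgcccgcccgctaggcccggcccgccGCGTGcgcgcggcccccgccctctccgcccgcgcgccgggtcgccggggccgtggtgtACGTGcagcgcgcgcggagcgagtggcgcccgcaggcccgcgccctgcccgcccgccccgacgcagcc
Egln3, chr12:54203875-54204124, minus strand: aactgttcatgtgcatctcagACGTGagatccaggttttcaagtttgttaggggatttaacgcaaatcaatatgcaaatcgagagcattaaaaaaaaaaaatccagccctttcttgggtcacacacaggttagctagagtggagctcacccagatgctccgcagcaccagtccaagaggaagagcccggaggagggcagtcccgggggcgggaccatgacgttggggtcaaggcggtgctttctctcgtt
Bnip3 held 5 matches, of which the pair around CACGTG is 1 palindrome counted on both strands, 108 and 107 bases before the start. Hif1a held 3 matches, also with CACGTG, Egln1 held 2 and Egln3 held 1. Over all 32851 windows of this length, 38.6% held at least 1 match, 1.01% held 5 or more and 6.02% held CACGTG. The motif contains CG, and all 4 windows shown were richer in CG dinucleotides than the median of 6. Bnip3 had 24, Hif1a 14, Egln1 51 and Egln3 10. Adm held 2 matches and Vhl none. Of the windows at the 2 listed Vegfa starts, 1 held no match and 1 held 2. Epas1, Ndrg1 and Bnip3l were not in the sequence table. A match describes these letters and is not a measured binding site.

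**Figure D1:**
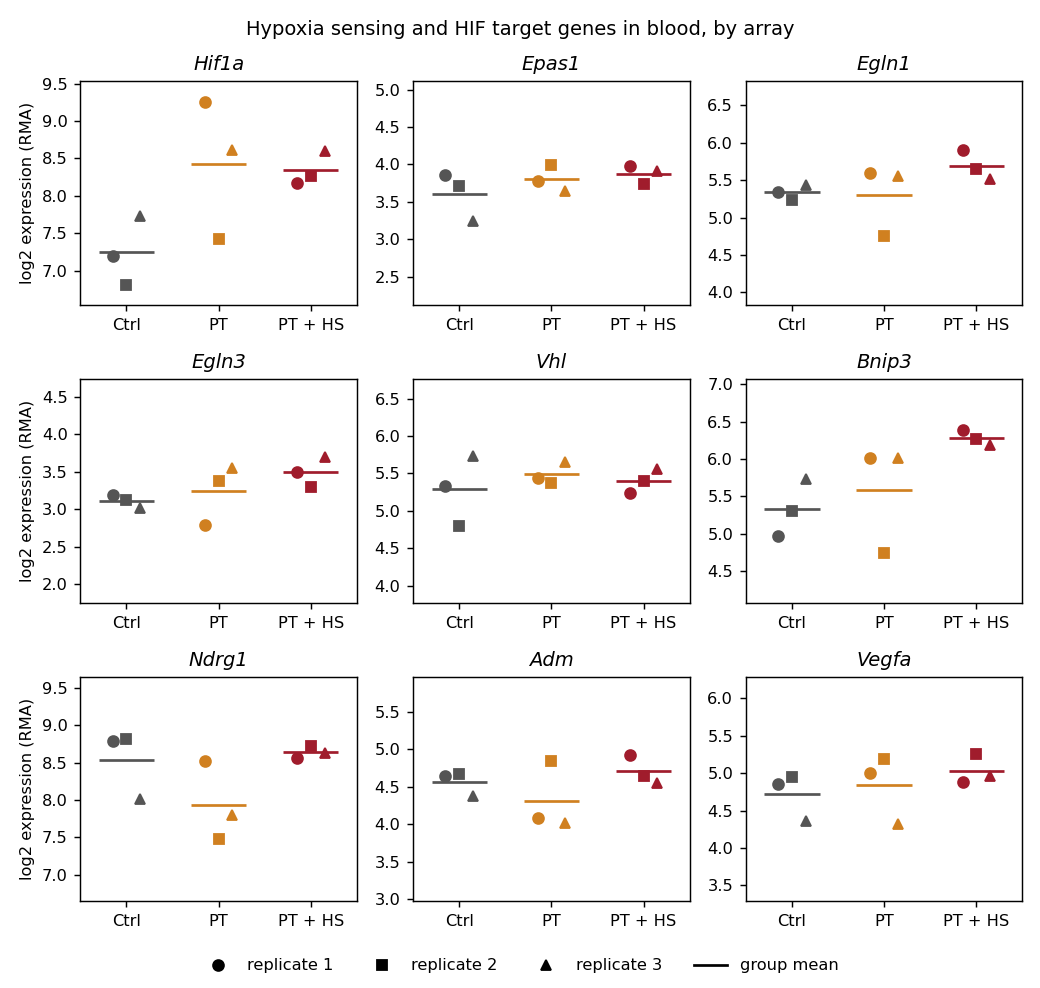
Log2 expression (robust multiarray average) of the 9 measured genes in each array, with a marker shape per replicate number and a line at the group mean; every panel spans 3 log2 units. Hif1a was higher in both injured groups than in Ctrl, the 3 PT + HS values of Bnip3 (6.19 to 6.39) lay above all others, and Ndrg1 was lowest in PT replicate 2 (7.48).

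With all arrays and before adjustment over all genes, 3 of the 9 genes were called, the alpha subunit Hif1a and the targets Bnip3 and Ndrg1. Leaving out 1 array at a time gave 0 to 2 calls in each comparison. The genes without a call are not thereby shown to be unchanged. Hif1a was higher in both injured groups than in Ctrl, Bnip3 was higher in PT + HS than in Ctrl, and Ndrg1 differed between the injured groups, with PT + HS above PT. A gene was called at the thresholds of the study, which were p under 0.05 before adjustment together with at least a 1.5-fold change. The p-values here are from limma, where the study used a t-test. With a t-test none of the 9 genes was called between PT + HS and PT or between PT and Ctrl. Hif1a and Bnip3 kept their calls between PT + HS and Ctrl with it. Between PT + HS and PT 1 of 9 genes was called (Ndrg1), as were 1.12% of all genes, or 0.726% as higher. Between PT and Ctrl 1 of 9 was called (Hif1a), as were 3.67% of all genes, or 1.41% as higher. Between PT + HS and Ctrl 2 of 9 were called (Hif1a and Bnip3), as were 3.28% of all genes, or 1.99% as higher. With p-values adjusted over all genes, limma called none of the 9 genes in any comparison, and 0, 0 and 0.0055% of all genes in the same order. At p under 0.05 without adjustment the counts among the 9 genes were again 1, 1 and 2, beside 2.87%, 5.82% and 4.86% of all genes.

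The groups did not overlap in 2 of 9 genes between PT + HS and PT, both higher in PT + HS, where 7.17% of all genes did not overlap and 3.61% were higher. Between PT and Ctrl this held for 0 of 9 genes and for 9.44% of all genes. For PT + HS and Ctrl it held for 4 of 9 genes, all higher in PT + HS, against 13.2% of all genes in either direction and 6.55% as higher. All 9 genes had a positive difference between PT + HS and Ctrl, with a median of 0.31, where 47.4% of all genes had one and their median was -0.014. With all probe sets of each gene averaged in place of the brightest one, that median was 0.13, and Adm, Ndrg1 and Vhl turned negative. The median was 0.26 between PT + HS and PT, where 7 of 9 genes and 49.3% of all genes were positive, but 0.096 with the probe sets averaged and 0.13 with arrays weighted by quality. It was 0.13 between PT and Ctrl with 6 of 9 positive, and -0.023 with the mean of the probe sets.

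**Figure D2:**
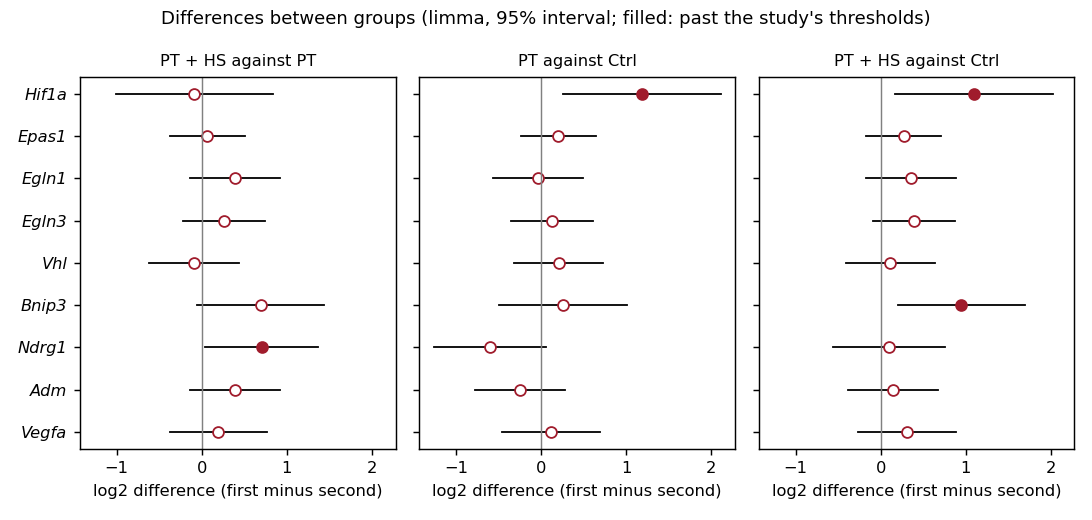
Log2 difference of each of the 9 genes in the 3 comparisons, as points with 95% intervals from limma on all 9 arrays; filled points passed an unadjusted p under 0.05 and 1.5-fold. The intervals exclude 0 for Ndrg1 between PT + HS and PT (0.04 to 1.36), and against Ctrl for Hif1a in both injured groups and for Bnip3 in PT + HS (0.20 to 1.70).

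The alpha subunit gene Hif1a differed from Ctrl in both injured groups and not detectably between them. Its log2 level was 7.20, 6.81 and 7.73 in Ctrl, 9.25, 7.43 and 8.61 in PT, and 8.17, 8.26 and 8.60 in PT + HS, each in the order of replicates 1 to 3. All PT + HS values lay above all Ctrl values, while PT replicate 2 lay within the Ctrl range and PT replicate 1 was the highest of the 9. PT differed from Ctrl by 1.18 (standard error 0.41), that is 2.27-fold, and PT + HS by 1.10 (standard error 0.41), that is 2.14-fold. Both were called at the thresholds of the study, but neither passed adjustment over all genes (adjusted p = 0.741 and 0.897 from limma). The difference between PT + HS and PT was -0.09, with a 95% interval from -1.01 to 0.84, which leaves room for a change of nearly 1 log2 unit either way. Without PT replicate 2, PT exceeded Ctrl by 1.69 (adjusted p = 0.0570 from limma) and PT + HS differed from PT by -0.59. Both comparisons against Ctrl use the same 3 Ctrl arrays, and without Ctrl replicate 2 neither passed the thresholds (0.97 and 0.88). The PT difference did not pass without PT replicate 1 (0.77), nor the PT + HS difference without Ctrl replicate 1 (1.07) or PT + HS replicate 3 (0.97).

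Hif1a is covered by 4 probe sets, and they did not move alike. The second brightest, 1416035_at, read 5.34, 4.81 and 4.53 in Ctrl, 7.18, 5.31 and 6.36 in PT, and 5.43, 5.91 and 7.50 in PT + HS. It differed from Ctrl by 1.39 in PT and by 1.39 in PT + HS (standard error 0.57) and passed the thresholds in both, with PT + HS above Ctrl in every array. The probe set 1448183_a_at, with values of 3.62 to 4.41, differed by 0.45 in PT and by 0.15 in PT + HS and passed in neither. The dimmest, 1431981_at, stayed between 2.82 and 3.21 in all arrays, with differences of -0.01 and -0.07.

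Neutrophil markers moved with Hif1a. Of 14 measured markers, 14 had a positive difference in PT and 13 in PT + HS against Ctrl, with medians of 1.15 and 1.40 and with 7 and 9 called. Among all genes 49.9% and 47.4% were positive in these comparisons, and 1.41% and 1.99% were called as higher. The mean level of the 14 markers per array was 6.39 to 7.66 in Ctrl, 7.40 to 8.87 in PT and 7.91 to 9.12 in PT + HS. Among the PT arrays it was lowest in replicate 2, where Hif1a was lowest too, but in PT + HS it was highest in replicate 1, where Hif1a was lowest, and in Ctrl the highest values lay in different arrays. B-cell markers went the other way. As lower, 10 of 11 were called in PT and 10 of 11 in PT + HS, beside 2.26% and 1.29% of all genes. Without PT replicate 2, 8 of 11 were called as lower in PT. The part of these cell types in the Hif1a difference was not tested.

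Epas1, which encodes HIF-2alpha and is best known from endothelium, did not differ detectably between the groups. Its values were 3.86, 3.71 and 3.24 in Ctrl, 3.78, 3.99 and 3.65 in PT, and 3.97, 3.74 and 3.91 in PT + HS. The 3 groups overlapped, and the values lie below 4.29, the median of the mean levels of all genes, so that the gene ranks among the weaker signals. The difference was 0.20 for PT against Ctrl (95% interval -0.24 to 0.64), 0.27 for PT + HS against Ctrl (-0.17 to 0.71) and 0.07 for PT + HS against PT (-0.37 to 0.51). A second Epas1 probe set differed by 0.10, -0.02 and -0.12 in the same order. Of the endothelial markers, the defining Cdh5 and Tek also had group means below that median, at 3.20 to 3.38 and 2.62 to 2.70, while the mean level of all 10 was 4.46 to 4.82 per array. The response of Hif1a exceeded that of Epas1 by 0.98 in PT and by 0.83 in PT + HS against Ctrl, each with p = 0.2 in a two-sided exact permutation test, and 3 against 3 arrays cannot go below 0.1. With adjustment over the 6 such tests made on the pairs Hif1a with Epas1 and Egln1 with Egln3, these exact p-values became 0.6.

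Among the genes of HIF turnover, the hydroxylase Egln1 was 5.34, 5.24 and 5.43 in Ctrl, 5.59, 4.75 and 5.55 in PT, and 5.90, 5.66 and 5.52 in PT + HS. All PT + HS values lay above all Ctrl values, by 0.35 in the mean (standard error 0.24, adjusted p = 0.999 from limma), and the PT values reached from below the Ctrl range to just above the lowest PT + HS value. Without PT replicate 2, the lowest value of all, the PT difference from Ctrl was 0.24 in place of -0.04. Egln3, a hydroxylase whose gene is itself a HIF target, gave 3.19, 3.12 and 3.01 in Ctrl, 2.78, 3.37 and 3.55 in PT, and 3.50, 3.30 and 3.69 in PT + HS. Here too PT + HS lay above Ctrl in every array, by 0.39 (standard error 0.22, adjusted p = 0.999 from limma), also at a level below the median of all genes. Neither gene passed the thresholds in any comparison. The second probe sets of Egln1 and Egln3 gave 0.10 and 0.24 for PT + HS against Ctrl, and their groups overlapped. The responses of Egln1 and Egln3 differed by -0.17 to 0.13 over the 3 comparisons, with exact permutation p-values of 0.7 to 0.9. Vhl, the substrate-binding part of the ligase that degrades HIF alpha, was 5.33, 4.79 and 5.73 in Ctrl, 5.44, 5.37 and 5.66 in PT, and 5.24, 5.40 and 5.55 in PT + HS. Its Ctrl arrays enclosed all other values, and the differences were 0.20, 0.11 and -0.09 for PT against Ctrl, PT + HS against Ctrl and PT + HS against PT (standard error 0.24). The second Vhl probe set, 1421071_at, turned the first of them to -0.31 and the next to -0.25.

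Bnip3, a mitochondrial protein of mitophagy and cell death that HIF induces, was highest in PT + HS. Its single probe set read 4.97, 5.30 and 5.73 in Ctrl, 6.01, 4.75 and 6.02 in PT, and 6.39, 6.27 and 6.19 in PT + HS. The 3 PT + HS values lay above the other 6, and they were the closest together, with an SD of 0.10 against 0.38 in Ctrl and 0.73 in PT. PT + HS exceeded Ctrl by 0.95 (standard error 0.34, 95% interval 0.20 to 1.70), that is 1.93-fold, and passed the thresholds but not adjustment (adjusted p = 0.821 from limma). PT + HS exceeded PT by 0.69 (standard error 0.34, 95% interval -0.06 to 1.44) and did not pass, although the groups did not overlap. The PT mean rests on replicate 2. Without this array PT itself exceeded Ctrl by 0.68 and passed the thresholds (adjusted p = 0.361 from limma), and the difference between PT + HS and PT was 0.27 (adjusted p = 0.815 from limma). Without PT replicate 1 or 3 that difference was 0.90 or 0.91 and passed the thresholds. The difference of PT + HS from Ctrl did not pass without Ctrl replicate 1 (0.77) or PT + HS replicate 1 (0.89). The neutrophil markers, with a median difference of 1.40 between PT + HS and Ctrl and of 0.39 between PT + HS and PT, had the same direction. Between PT + HS and PT so had all 15 monocyte, all 11 platelet and all 8 NK-cell markers, with medians of 0.36, 0.28 and 0.28. Against Ctrl, 7 of 15, 0 of 11 and 2 of 8 of these were positive in PT + HS. Without PT replicate 2 the neutrophil median between PT + HS and PT was -0.014, with 6 of 14 positive. The monocyte median was then 0.36, and the difference of Bnip3 was 0.27. The part of these cell types in the Bnip3 difference was not tested.

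Ndrg1, a stress-responsive gene that HIF induces, had a different order, with PT below both other groups. It read 8.79, 8.81 and 8.01 in Ctrl, 8.53, 7.48 and 7.80 in PT, and 8.57, 8.72 and 8.63 in PT + HS. Every PT + HS value lay above every PT value, although PT + HS replicate 1 and PT replicate 1 were close, and the Ctrl values overlapped with both. PT + HS exceeded PT by 0.70 (standard error 0.30, 95% interval 0.04 to 1.36), that is 1.63-fold, and passed the thresholds but not adjustment (adjusted p = 1.0 from limma). PT differed from Ctrl by -0.60 (standard error 0.30) and did not pass, but it did without Ctrl replicate 3 (-0.87) or PT replicate 1 (-0.90, adjusted p = 0.780 from limma), and PT + HS differed from Ctrl by 0.10. Without PT replicate 2 the difference between PT + HS and PT was 0.48 and did not pass, nor did it without PT replicate 3 (0.63) or without PT + HS replicates 1, 2 or 3 (0.74, 0.66 and 0.71). Without PT replicate 1 it was 1.0 and passed, and with arrays weighted by quality it was 0.22 and did not.

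The order of the Ndrg1 groups was shared by its other 4 probe sets, which read the same arrays and are no further replicates. In these 4, PT differed from Ctrl by -0.88 to -0.40 and PT + HS from PT by 0.28 to 0.70. The probe set 1420760_s_at read 8.62, 8.69 and 8.20 in Ctrl, 7.84, 7.80 and 7.86 in PT, and 8.60, 8.34 and 8.65 in PT + HS. Here PT replicate 2 did not stand apart, and PT lay below both other groups in every array, with a difference of -0.67 from Ctrl and of 0.70 between PT + HS and PT (standard error 0.17). Over all 5 probe sets, 4 passed the thresholds between PT + HS and PT, and 2 between PT and Ctrl. None passed between PT + HS and Ctrl, where the differences were -0.17 to 0.13. The brightest probe set carries the suffix that Affymetrix gives to probe sets with probes that can bind other transcripts. The names 1420760_s_at and 1450977_s_at carry another suffix, for probes shared by several transcripts.

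**Figure D3:**
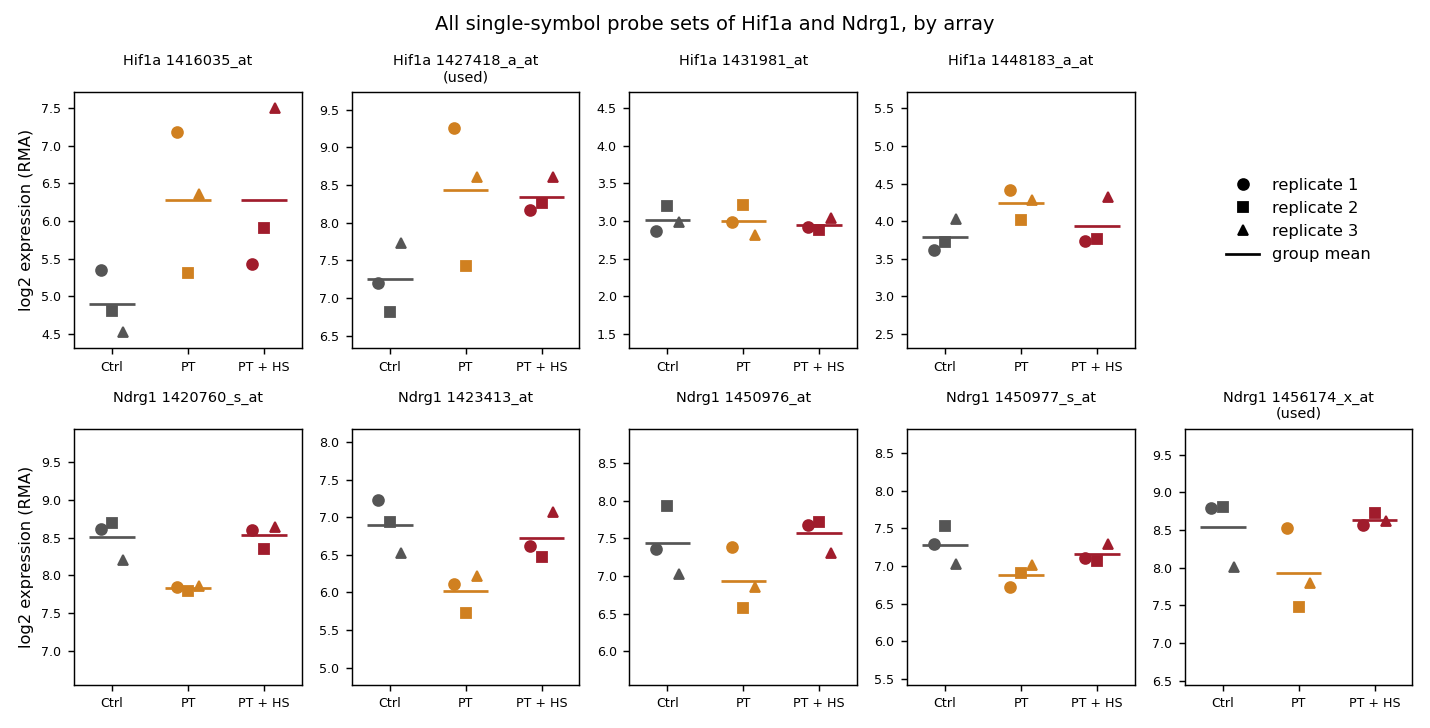
Log2 expression in each array for the 4 Hif1a probe sets (top) and the 5 Ndrg1 probe sets (bottom), with a line at the group mean on the same span in every panel. PT is the lowest group in every Ndrg1 panel, while the Hif1a difference is seen in the brighter pair of probe sets and not in 1431981_at (2.82 to 3.21).

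With all arrays, markers of platelets and NK cells moved in the same directions as Ndrg1. Among all genes 49.9% were positive between PT and Ctrl and 49.3% between PT + HS and PT, with 3.67% and 1.12% called. Between PT + HS and Ctrl 3.28% were called. All 11 platelet markers had a negative difference between PT and Ctrl, with a median of -0.45 and 2 called, and all 11 a positive one between PT + HS and PT, with a median of 0.28 and 0 called (1 at p under 0.05 before adjustment in limma). The signs were the same for all 11 without PT replicate 2, with medians of -0.34 and 0.22. Their mean level per array was 9.997 to 10.26 in Ctrl, 9.60 to 9.79 in PT and 9.87 to 10.17 in PT + HS. All 8 NK-cell markers were negative between PT and Ctrl, with 4 called, and positive between PT + HS and PT, with a median of 0.28 and 1 called. Without PT replicate 2, 7 of 8 were negative between PT and Ctrl and 6 of 8 positive between PT + HS and PT, and their mean level differed by 0.12 in the latter. In that setting 1 NK-cell marker was called as higher and 2 as lower between PT and Ctrl. Between PT + HS and PT 0 were then called as higher and 1 as lower. With all arrays the NK-cell mean level per array was 5.98 to 6.15 in Ctrl, 4.83 to 5.71 in PT and 5.63 to 5.95 in PT + HS. All 15 monocyte markers were positive between PT + HS and PT, with 3 called, but they were split between PT and Ctrl, with 3 called as higher and 4 as lower. Without PT replicate 2, 12 of 15 were positive between PT + HS and PT, with 6 called. None of 12 T-cell and 12 red cell precursor markers was called in any comparison (0 and 1 at p under 0.05 before adjustment in limma) with all arrays, although without PT replicate 2 T-cell markers were called, 2 as higher between PT and Ctrl, 4 as lower between PT + HS and PT and 1 as lower between PT + HS and Ctrl. Of 9 eosinophil and basophil markers and of 10 endothelial markers at most 1 each was called in a comparison. The part of these cell types in the Ndrg1 difference was not tested.

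The secreted factors Adm and Vegfa did not pass the thresholds in any comparison. Adm, the vasodilator peptide adrenomedullin, was 4.64, 4.67 and 4.38 in Ctrl, 4.08, 4.85 and 4.01 in PT, and 4.92, 4.64 and 4.56 in PT + HS. PT replicate 2 was the highest PT value here, and without it PT + HS exceeded PT by 0.66 and passed the thresholds (adjusted p = 0.577 from limma), against 0.39 with all arrays (standard error 0.24). The second Adm probe set gave -0.22 for this difference, and the brighter one carries the suffix for possible cross-hybridization. Vegfa, the angiogenic growth factor, was 4.86, 4.95 and 4.36 in Ctrl, 5.01, 5.18 and 4.32 in PT, and 4.88, 5.25 and 4.97 in PT + HS. The groups overlapped, with differences of 0.11 for PT against Ctrl, 0.31 for PT + HS against Ctrl and 0.20 for PT + HS against PT (standard error 0.26, 95% interval of the last -0.38 to 0.77). Its second probe set gave -0.16, with PT below Ctrl in every array, -0.06 and 0.10.

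**Figure D4:**
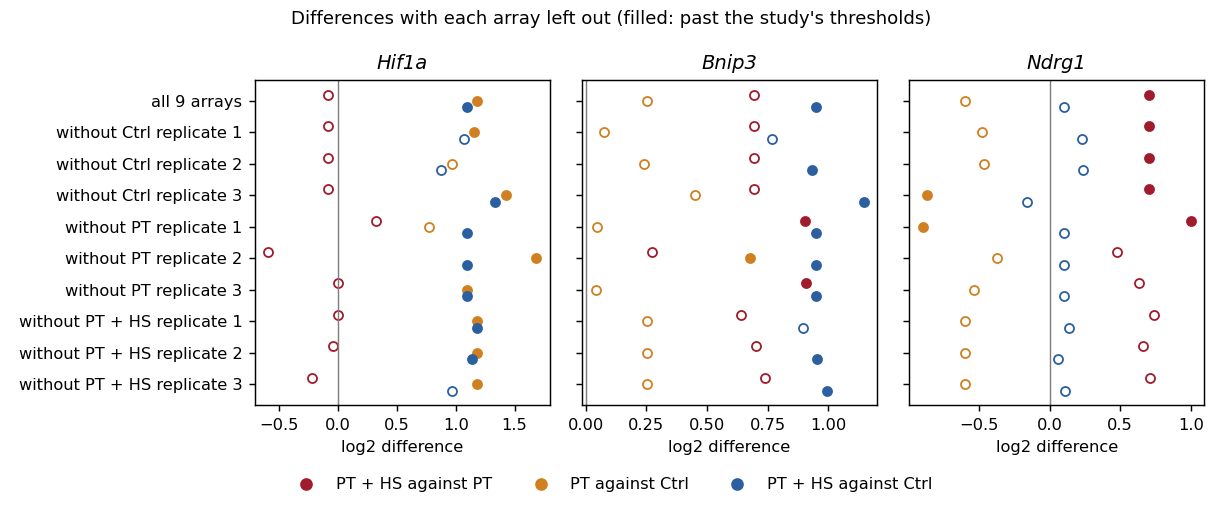
Log2 differences of Hif1a, Bnip3 and Ndrg1 with all 9 arrays and with each array left out, in 3 colors for the comparisons; filled points passed the thresholds. Without PT replicate 2 the Bnip3 difference between PT + HS and PT is at 0.27 and that between PT and Ctrl at 0.68.

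The rest of the pathway was described with lists written from textbook knowledge. Over all genes, 1.12% were called between PT + HS and PT, 3.67% between PT and Ctrl and 3.28% between PT + HS and Ctrl. Of 22 other measured genes of oxygen sensing and HIF regulation, 0 passed between PT + HS and PT (none with an unadjusted p under 0.05 from limma), 0 between PT + HS and Ctrl (1 at that level), and 1 was lower in PT than in Ctrl. This was Hsp90aa1, a chaperone that stabilizes HIF alpha, with 8.75, 8.70 and 8.43 in Ctrl against 8.05, 7.58 and 8.16 in PT, a difference of -0.69 (standard error 0.27). The Hsp90aa1 difference was -0.52 and not called without PT replicate 2. Without that array Cited2 was called instead, as higher than Ctrl in PT (0.67) and in PT + HS (0.71). Medians of this list were -0.06 to 0.06 over the 3 comparisons.

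Of 45 other measured HIF targets outside glycolysis, 1 passed as higher in each comparison with PT and 3 between PT + HS and Ctrl, with medians of -0.04 to 0.00. Without PT replicate 2, 2 passed as higher between PT + HS and PT, and 3 as higher and 1 as lower between PT and Ctrl. Ak4 (0.76) then gained a call between PT + HS and PT, and Ero1a (0.78) and Epor (-0.78) between PT and Ctrl. Plin2, a lipid droplet protein, was 6.94, 6.45 and 6.48 in Ctrl, 7.42, 7.14 and 6.71 in PT, and 8.42, 7.26 and 7.94 in PT + HS. It was higher in PT + HS than in Ctrl by 1.25 and than in PT by 0.78 (standard error 0.30, adjusted p = 0.453 and 1.0 from limma), with no overlap with Ctrl. Ppp1r3b, a glycogen-targeting phosphatase subunit, exceeded Ctrl by 1.48 in PT and 1.31 in PT + HS (standard error 0.50). Ddit4, a stress-induced inhibitor of mTORC1 signaling, exceeded Ctrl by 1.12 in PT + HS (standard error 0.45), with PT at 0.68, and without PT replicate 2 at 1.09, which was called.

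Between PT + HS and PT, 16 of 19 measured glycolytic HIF targets had a positive difference, with a median of 0.26, and 3 of these passed the thresholds. Among all genes 49.3% were positive in this comparison and 0.726% were called as higher. Without PT replicate 2, 11 of the 19 targets were positive, with a median of 0.11, and 1 passed, Hk2. Hk2, the inducible hexokinase, was 5.34, 5.04 and 4.72 in Ctrl, 5.11, 4.39 and 4.28 in PT, and 5.82, 5.36 and 5.56 in PT + HS. Like Ndrg1, it had its lowest mean in PT, and PT + HS lay above PT in every array, by 0.99 in the mean (standard error 0.26). The glucose transporter Slc2a1 was higher in both injured groups, as Hif1a was, with 5.95, 5.50 and 6.11 in Ctrl, 8.43, 6.68 and 7.79 in PT, and 7.11, 7.67 and 8.45 in PT + HS. It exceeded Ctrl by 1.78 and 1.89 in PT and PT + HS (standard error 0.45, adjusted p = 0.468 and 0.439 from limma), and both groups lay above Ctrl in every array. Pfkfb3 and Pfkfb4, which make the activator of phosphofructokinase, exceeded Ctrl in PT + HS by 0.80 and 0.69, and Pfkfb4 exceeded PT by 0.75, or by 0.57 and without a call when PT replicate 2 was left out. Aldoc and Tpi1, enzymes of the same pathway, were lower in PT than in Ctrl by log2 differences of -0.78 and -0.69, so that the list did not move one way. Against Ctrl, 1 gene passed as higher and 2 as lower in PT, and 4 as higher and 1 as lower in PT + HS.

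The receptors and partners of adrenomedullin and VEGF gave no call among 12 measured genes. The VEGF receptor Kdr differed by -0.36 between PT + HS and PT (standard error 0.14) and Calcrl, the receptor for adrenomedullin, by -0.997 between PT + HS and Ctrl (standard error 0.46). Of 14 measured mitophagy partners of Bnip3 and Bnip3l, 1 passed: Gabarapl1, a protein of autophagosome membranes, with 7.80, 8.11 and 7.68 in Ctrl against 7.34, 7.33 and 7.09 in PT, differing by -0.61 (standard error 0.18). Without PT replicate 2, Bcl2 was also called, as higher in PT than in Ctrl (0.95).

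**Figure D5:**
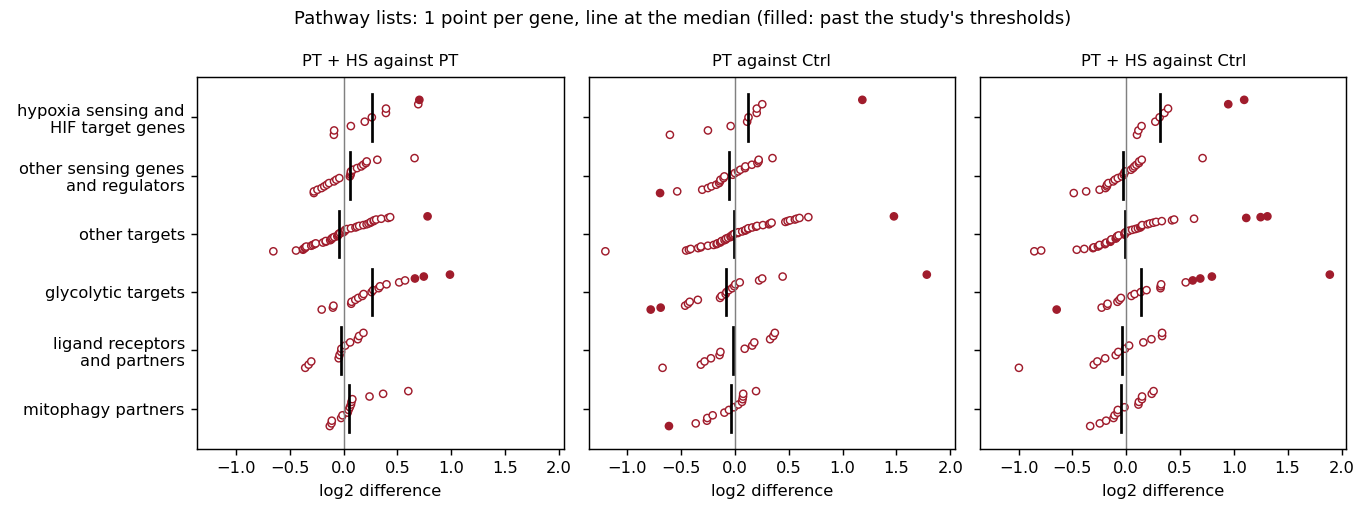
Log2 differences in the 3 comparisons for the 9 genes and the 5 other pathway lists, with 1 point per gene and a line at the median of each list; filled points passed the thresholds. Between PT + HS and PT the medians are 0.26 for the 9 genes and for the glycolytic targets, the latter 0.11 without PT replicate 2, and near 0 for the 4 other lists.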

How the data were processed

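The authors deposited log2 expression values made by robust multiarray average (background correction, quantile normalization between arrays, 1 value per probe set), per the paper with Expression Console and BRB-ArrayTools. The versions of these programs are not stated there. The probe set names belong to another Affymetrix array than the one the paper names, and they were annotated as such. The scanner files were not used here. Of 45101 probe sets, 34958 had exactly 1 symbol, and the one with the highest mean over the 9 arrays stood for each of 18194 genes, with no filter on low values. All 9 columns were used.

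limma 3.58.1 in R 4.3.3 was fitted with a mean per group to all arrays, with moderated tests (two-sided) and Benjamini-Hochberg adjusted p-values over all genes, and was tested on simulated data. Responses of paralogs were compared by exact permutation tests. The 10 genes, the pathway and marker lists and the rule for naming genes were chosen with earlier results of these data known. All 10 are named, and of each pathway list up to 6 genes past the thresholds with the largest differences, or else the 2 with the smallest p. Cited2, Ero1a, Epor, Ak4 and Bcl2 were named beyond that rule, for calls gained without PT replicate 2. Promoter windows came from RefSeq for 7 of the 10 genes. No batch is given in the labels, and the replicates are separate animals per the paper. The number of arrays limits the precision. The alternatives are given below.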

Additional observations from a re-analysis of the deposited data

How the results depend on the processing

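The number of genes past the thresholds was 0 and 0 between PT + HS and PT and between PT and Ctrl with the methods' t-test. Between PT + HS and Ctrl, Hif1a and Bnip3 kept their calls with that test. At 2-fold the number was 0 and 1 between PT + HS and PT and between PT + HS and Ctrl. When arrays were weighted by their estimated quality, which gave PT replicate 1 a share of 86.9% in the mean of its group, the number was 3 between PT + HS and PT (Adm and Egln3 higher, Hif1a lower) and 2 between PT and Ctrl. Ndrg1 then lost its call between PT + HS and PT (0.22), and Bnip3 was at 0.33. Hif1a was then higher in PT than in Ctrl by 1.94 (adjusted p = 0.00862 from limma), and the signs of Egln1 (0.23) and Egln3 (-0.24) between PT and Ctrl turned. With all probe sets of each gene averaged 2 genes passed between PT and Ctrl, Hif1a and Ndrg1. The sign then turned for Epas1 between PT + HS and PT (-0.026), Vegfa and Vhl between PT and Ctrl (-0.023 and -0.053), and Adm, Ndrg1 and Vhl between PT + HS and Ctrl (-0.039, -0.0086 and -0.071). With the most variable probe set it turned for Egln3 between PT + HS and PT (-0.071). With repeated quantile normalization Ndrg1 (0.65) lost and Bnip3 (0.76) gained its call between PT + HS and PT. The cause of these shifts was not tested.

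Leaving out 1 array at a time gave 0 to 2 genes past the thresholds in each comparison. Differences whose sign depended on 1 array ranged between PT + HS and PT from -0.59 to 0.32 for Hif1a, -0.011 to 0.16 for Epas1 and -0.062 to 0.37 for Vegfa. Between PT and Ctrl they ranged from -0.19 to 0.24 for Egln1, -0.029 to 0.35 for Egln3, -0.044 to 0.43 for Vhl and -0.066 to 0.37 for Vegfa, and between PT + HS and Ctrl from -0.16 to 0.24 for Ndrg1 and -0.13 to 0.34 for Vhl. The response of Hif1a minus that of Epas1 ranged from -0.75 to 0.27 between PT + HS and PT. Egln1 minus Egln3 ranged from -0.21 to 0.51 between PT + HS and PT, -0.54 to 0.18 between PT and Ctrl and -0.14 to 0.15 between PT + HS and Ctrl. The pair with Bnip3l was not run, since Bnip3l has no probe set of its own.

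Replicate numbers were not used as pairs in the main fit. Correlations of deviations from the group means were -0.12 to 0.48 between arrays of the same number, highest for replicate 3 between PT and Ctrl. With the replicate block 264, 743 and 693 genes passed the thresholds between PT + HS and PT, PT and Ctrl, and PT + HS and Ctrl, against 204, 668 and 596 without it. In limma 0, 2 and 21 genes then had an adjusted p under 0.05, against 0, 0 and 1. Whether arrays of the same number share a batch is thus not settled. The 9 genes gave 1, 1 and 2 calls with the block as without it. The median of the 9 genes between PT and Ctrl turned to -0.023 with the probe sets averaged. The medians are smaller than or close to 0.281, the SD within groups of the per-array median level of the 9 genes. That SD is not the spread of the median differences, which have no firm size. The list values without PT replicate 2, and the genes named for calls gained without it, were chosen after seeing the data. With 3 arrays per group the standard errors of the 9 genes were 0.20 to 0.41, which sets the size of difference that could be detected.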
